A study of Mus musculus with 12 samples.

Results

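The interleukin-1 family receptor genes were followed in 2 CD4 T cell populations of the mouse spleen. The members are the 8 genes Il1r1, Il1r2, Il1rl1, Il1rap, Il18r1, Il18rap, Sigirr and Il1rn, taken by gene symbol from the 55401 genes of the deposited table. Each symbol matched 1 gene, and all 8 had enough counts to be tested. The cells came from C57BL/6 mice harvested 21 days after infection with Leishmania donovani, the protozoan that causes visceral leishmaniasis. Both populations came from infected spleens, and no uninfected group is part of the comparison. The population abbreviated TLCP was sorted as CD4 T cells that were LAG-3+ and CXCR5+ with PD-1lo/int staining. The population abbreviated Tfh, labelled T follicular helper cells, was sorted as CXCR5+ PD-1hi, which the series description calls mostly germinal center Tfh cells. Each population has 6 libraries, numbered 1 to 6, and the description gives 6 mice; age and sex are not given in the labels used here.

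Interleukin-1 family cytokines signal by joining a ligand-binding receptor chain to an accessory chain, which brings their intracellular TIR domains together and recruits the adaptor MyD88, kinases of the IRAK family and TRAF6, and through them NF-kB and MAP kinases. Il1r1 encodes the signaling receptor for interleukin-1, Il1rl1 the interleukin-33 receptor ST2, and Il18r1 the ligand-binding chain for interleukin-18. Il1rap encodes the accessory chain shared by the interleukin-1 and interleukin-33 receptors, and Il18rap that of the interleukin-18 receptor. The family also limits itself. Il1r2 encodes a decoy receptor that binds interleukin-1 without a signaling domain, Sigirr an inhibitory receptor, and Il1rn the soluble antagonist of Il1r1. In T cells, interleukin-18 receptor is a feature of Th1 cells, ST2 of Th2 cells and of tissue regulatory T cells, Il1r1 of Th17 cells, and Il1r2 has been described on follicular T cells.

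Of the 8 members 3 were higher in TLCP (Il18r1, Il18rap and Il1rl1), 3 were lower (Il1r1, Il1r2 and Il1rap) and 2 did not pass the test (Sigirr and Il1rn). The test was the edgeR quasi-likelihood test on read counts, and a gene was called at a Benjamini-Hochberg adjusted p under 0.05 over all 12015 genes tested. In this comparison 33.2% of all tested genes were called, 16.8% higher and 16.4% lower in TLCP. Of the members 5 were called with a change of at least 2-fold, against 9.74% of all tested genes. The 8 members had a median log2 fold change of -0.05, beside -0.004 for all tested genes. In 6 of the 8 members, which were the called ones, all 6 numbered pairs of libraries moved in 1 direction. Of all tested genes, called or not, 34.9% did so. The CPM ranges of the populations did not overlap for 2 members, Il1r1 and Il18r1, and for 17.2% of tested genes. Levels are CPM, read counts scaled to 1000000 reads per library after TMM normalization, with 6939770 to 12688306 reads assigned to genes per library. In bulk libraries, fewer cells that express a gene and less of its RNA per cell cannot be told apart.

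**Figure D1:**
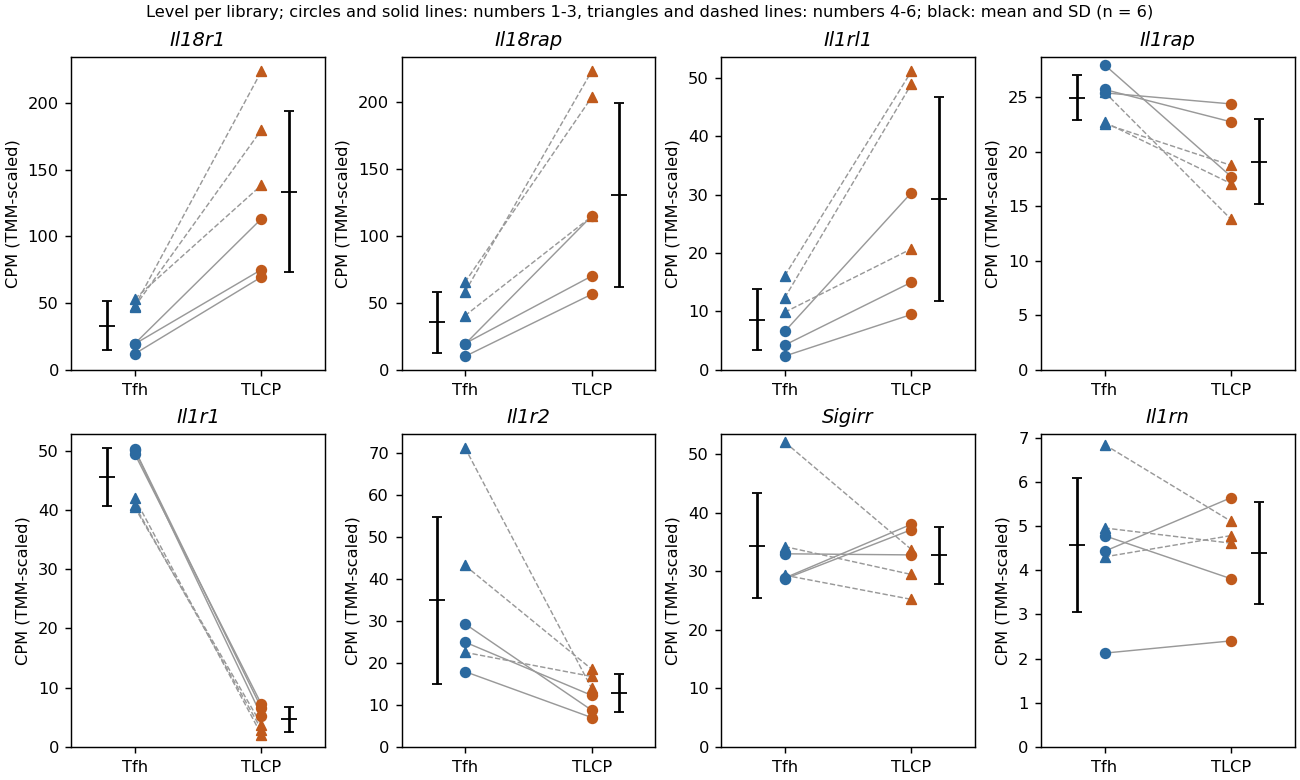
Level of each member in CPM (vertical axes, linear from 0) in the 6 Tfh (blue) and 6 TLCP (orange) libraries, with lines joining libraries of the same number and black bars for mean and SD. Il18r1, Il18rap and Il1rl1 lie higher in TLCP in every joined pair, Il1r1, Il1r2 and Il1rap lie lower in every pair, and Sigirr and Il1rn cross in both directions.

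The 5 called members with changes of at least 2-fold lie in 1 gene cluster on chromosome 1, and their promoters are shown because neighbouring members moved in opposite directions. In GRCm38 the cluster spans 477627 bases, from 40074079 to 40551705, and all its receptor genes are on the plus strand. In order along the chromosome they are Il1r2 (40074079 to 40125231), Il1r1 (40225080 to 40317257), Il1rl2 (40324610 to 40367562), Il1rl1 (40429570 to 40465415), Il18r1 (40465552 to 40500854) and Il18rap (40515362 to 40551705). Only 136 bases separate the annotated end of Il1rl1 from the start of Il18r1. The windows below are from RefSeq (GRCm38.p6, plus strand, 5′ to 3′), each from 250 bases before to 50 bases after a start site, and RefSeq windows matched 7 of the 8 members. For Il1r1, Il1rl1, Il18r1 and Il18rap the start site shown is the start of the gene in the files, whereas the Il1r2 site, 40086093, lies inside the annotated gene. Capitals mark matches, on either strand, to 6 short motifs, which were TGANTCA for AP-1, TTCNNNGAA for STAT factors, AGATAA for GATA factors, GTGTGA for T-box factors, TGTGGT for RUNX factors and the consensus of NF-kB.
Il1r2 chr1:40085843-40086142: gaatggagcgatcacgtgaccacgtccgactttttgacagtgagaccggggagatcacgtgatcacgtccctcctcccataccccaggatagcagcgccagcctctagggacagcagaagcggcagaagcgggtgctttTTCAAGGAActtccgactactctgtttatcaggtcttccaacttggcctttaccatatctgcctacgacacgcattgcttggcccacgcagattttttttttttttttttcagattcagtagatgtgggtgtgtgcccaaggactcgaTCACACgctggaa
Il1r1 chr1:40224830-40225129: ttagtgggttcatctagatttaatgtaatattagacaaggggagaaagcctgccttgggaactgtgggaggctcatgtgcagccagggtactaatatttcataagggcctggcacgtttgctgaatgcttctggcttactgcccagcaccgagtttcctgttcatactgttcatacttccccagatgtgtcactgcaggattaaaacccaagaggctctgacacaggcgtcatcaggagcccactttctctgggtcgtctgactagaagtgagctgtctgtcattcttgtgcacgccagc
Il1rl1 chr1:40429320-40429619: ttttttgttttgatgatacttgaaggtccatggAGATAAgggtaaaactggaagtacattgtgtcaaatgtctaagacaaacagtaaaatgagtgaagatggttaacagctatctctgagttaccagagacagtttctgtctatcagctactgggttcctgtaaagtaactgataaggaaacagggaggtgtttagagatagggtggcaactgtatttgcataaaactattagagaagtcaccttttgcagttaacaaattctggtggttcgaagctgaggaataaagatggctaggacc
Il18r1 chr1:40465302-40465601: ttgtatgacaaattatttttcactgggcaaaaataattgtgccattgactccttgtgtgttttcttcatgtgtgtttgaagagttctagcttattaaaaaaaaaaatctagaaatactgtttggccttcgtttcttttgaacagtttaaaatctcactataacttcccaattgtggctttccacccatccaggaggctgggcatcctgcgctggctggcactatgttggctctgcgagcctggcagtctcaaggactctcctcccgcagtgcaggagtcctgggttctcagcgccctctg
Il18rap chr1:40515112-40515411: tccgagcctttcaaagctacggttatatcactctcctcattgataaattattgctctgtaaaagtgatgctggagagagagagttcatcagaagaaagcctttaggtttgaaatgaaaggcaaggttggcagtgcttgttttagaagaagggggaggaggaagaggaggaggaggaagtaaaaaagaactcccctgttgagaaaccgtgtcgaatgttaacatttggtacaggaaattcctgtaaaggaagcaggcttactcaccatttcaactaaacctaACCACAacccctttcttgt

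The 5 windows held 4 matches in all. Counted from the start site, with minus for bases before it, the Il1r2 window held a STAT match from -111 to -103 and a T-box match from 37 to 42. The Il1rl1 window held a GATA match from -217 to -212, and the Il18rap window a RUNX match from 31 to 36. The windows of Il1r1 and Il18r1 held none of the 6 motifs. Among all 32851 RefSeq windows of this length, 7.81% held the AP-1 letters, 8.3% STAT, 11.2% GATA, 14.5% T-box, 16.8% RUNX and 1.47% NF-kB. The 3 members higher in TLCP shared no match. The Il1rl1 window had the lowest GC content of the 5, 38.7%, with 1 CG dinucleotide, and the Il1r2 window the highest, 51.3%, with 16 of them, where the median over all windows was 52.7% and 7. Il1r1, Il1rl1 and Il18r1 each have further RefSeq windows, and counts per gene do not tell which start was used.

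Il18r1, the ligand-binding chain of the interleukin-18 receptor, was the member with the highest level in TLCP. It was 69.5 CPM in the lowest, 126 at the median and 224 in the highest TLCP library. In Tfh the lowest, median and highest values were 12.01, 33.5 and 53.2 CPM. Every TLCP library lay above every Tfh library. The means were 133 ± 60.3 CPM (SD, n = 6) in TLCP and 33.2 ± 18.1 CPM in Tfh, a 4.05-fold difference (log2 fold change 2.02, SE 0.45, edgeR adjusted p = 0.0057). Within the numbered pairs the TLCP library was 2.60-fold to 5.79-fold higher.

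Il18rap, the signaling partner of that receptor, followed the same pattern. It was 56.5, 115 and 223 CPM (lowest, median, highest) in TLCP and 10.04, 30.05 and 65.5 CPM in Tfh. The ranges overlapped, since TLCP replicate 3, at 56.5 CPM, lay below Tfh replicates 5 and 6, at 65.5 and 58.2 CPM. The log2 fold change was 1.88 (SE 0.52, edgeR adjusted p = 0.018), and each TLCP library was 2.83-fold to 6.00-fold above the Tfh library of its number. On TPM, which scales by gene length, the ratio of Il18rap to Il18r1 had a geometric mean of 0.676 in TLCP and 0.723 in Tfh. This log2 ratio differed by -0.10 between the populations, less than its SD of 0.22 in TLCP and 0.32 in Tfh (exact 2-sided permutation test, p = 0.54, also 0.54 adjusted over 2 ratios). Both chains of this receptor were thus measured at a like ratio in both populations, 0.58 to 0.886 in TLCP and 0.545 to 0.979 in Tfh.

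Il1rl1, the interleukin-33 receptor ST2, was the third member that rose. It was 9.49, 25.5 and 51.1 CPM (lowest, median, highest) in TLCP and 2.36, 8.22 and 16.1 CPM in Tfh. The ranges overlapped, with TLCP replicates 1 and 3, at 15.01 and 9.49 CPM, below the highest Tfh library. Its log2 fold change was 1.78 (SE 0.54, edgeR adjusted p = 0.028), and it was higher in TLCP in 6 of 6 pairs, by 2.10-fold to 4.62-fold. The call was close to the threshold: the adjusted p was 0.060 without TLCP replicate 5, 0.058 without TLCP replicate 6, 0.058 without Tfh replicate 1 and 0.054 without Tfh replicate 2. In the blocked fit, which takes out what libraries of 1 number share, the log2 fold change was 1.78 (SE 0.14) and the adjusted p 4.5e-09. Counts per gene do not separate the membrane-bound from the soluble form of ST2.

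Basophils and mast cells carry ST2, and their transcripts were also higher in TLCP. Of 9 listed genes of these cells 7 could be tested and 7 rose, where 16.8% of all tested genes rose. Among the 7 were the proteases Mcpt8 (log2 fold change 5.24) and Prss34 (4.40). The summed level of the 9 genes was 32.5 to 106 CPM in TLCP and 1.20 to 11.8 CPM in Tfh. Within TLCP the library with the highest sum, replicate 3, had the lowest Il1rl1 level, 9.49 CPM. Replicates 5 and 6, with sums of 57.5 and 37.6 CPM, had the highest Il1rl1 levels, 51.1 and 49.0 CPM. Within Tfh, replicates 4 to 6 had sums of 6.61 to 11.8 CPM and Il1rl1 of 9.87 to 16.1 CPM. Replicates 1 to 3 had less of both, with sums of 1.20 to 3.05 CPM and Il1rl1 of 2.36 to 6.58 CPM. In Tfh, 28.7% of all tested genes likewise did not overlap between these 2 sets of libraries. Inside each set the library with the highest sum, replicate 4 or replicate 3, had the least Il1rl1, 9.87 and 2.36 CPM. The part of these cells in the population difference of Il1rl1 was not tested. For group 2 innate lymphoid cells and Th2 cells, which also carry ST2, of 6 listed genes 3 could be tested, Gata3 fell and 0 passed as higher. Klrg1 was higher in TLCP in 6 of 6 pairs but did not pass (14.7 against 5.47 CPM, log2 fold change 1.44, edgeR adjusted p = 0.099). Areg was lower in 5 of 6 pairs and did not pass (-1.19, edgeR adjusted p = 0.063). Il5 and Calca had 0 counts in all 12 libraries. Regulatory T cell genes, given with the other markers below, rose in 5 of 6, and the part of those cells was not tested either.

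Il1rap, the accessory chain that ST2 shares with the interleukin-1 receptor, did not move with Il1rl1. It was 13.8, 18.2 and 24.4 CPM (lowest, median, highest) in TLCP and 22.6, 25.4 and 27.97 CPM in Tfh. TLCP was lower in 6 of 6 pairs, while the ranges overlapped. The log2 fold change was -0.39 (SE 0.13, edgeR adjusted p = 0.021), the smallest change among the 6 called members. The call was lost with libraries scaled by their totals alone (-0.23, adjusted p = 0.17), in limma on log2(TPM + 1) (-0.10, adjusted p = 0.65) and without Tfh replicate 1 (-0.36, adjusted p = 0.051). These scalings also moved the median over all tested genes, to 0.17 with totals alone and to 0.25 on TPM. A single gene, CT010467.1, held 12.9% to 24.1% of the assigned reads in TLCP libraries and 16.6% to 30.9% in Tfh libraries. Its part in these shifts was not tested.

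Il1r1, the signaling receptor for interleukin-1, had the largest change of the 8 members. It was 40.4, 45.7 and 50.2 CPM (lowest, median, highest) in Tfh and 2.08, 4.53 and 7.21 CPM in TLCP. The populations were far apart, and even the lowest Tfh library was well above the highest TLCP library. Il1r1 was 9.88-fold lower in TLCP (log2 fold change -3.30, SE 0.23, edgeR adjusted p = 7.5e-08), at 4.64 ± 2.04 against 45.5 ± 4.89 CPM (SD, n = 6 each). Reads were still present in all 6 TLCP libraries, 266 in total, where a count of 0 would have allowed up to 0.303 to 0.352 CPM (3 counts of the total; counting error only).

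Il1r2, the decoy receptor, was lower in TLCP as well but by less. It was 7.01, 13.1 and 18.6 CPM (lowest, median, highest) in TLCP and 18.0, 27.2 and 71.3 CPM in Tfh. The ranges just overlapped, since TLCP replicate 5, at 18.6 CPM, lay above Tfh replicate 1, at 18.0 CPM. Tfh replicate 4 was the highest library. The log2 fold change was -1.42 (SE 0.37, edgeR adjusted p = 0.014), and it was -1.09 (adjusted p = 0.011) without Tfh replicate 4. TLCP was lower in 6 of 6 pairs. A noncoding gene on the opposite strand, Gm16894 (chromosome 1 from 40076228 to 40085851), lies within the annotated span of Il1r2. It fell too, with 1.94 ± 0.96 CPM (Tfh) and 0.717 ± 0.335 CPM (TLCP) (-1.44 on the log2 scale, SE 0.48, edgeR adjusted p = 0.027). The counts used were those on the strand of each gene.

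The ratio of decoy to signaling receptor also differed between the populations. On TPM the geometric mean ratio of Il1r2 to Il1r1 was 9.11 in TLCP and 2.29 in Tfh. It ranged from 3.17 to 24.5 over TLCP libraries and from 1.21 to 5.84 over Tfh libraries. The log2 ratio was 1.99 higher in TLCP (exact 2-sided permutation test over 924 regroupings, p = 0.013, 0.026 adjusted over 2 ratios), and 6 of 6 pairs moved this way. With the pairs kept together, an exact sign-flip permutation test gave p = 0.031, the smallest that 6 pairs allow, and 0.062 adjusted over 2 ratios, which did not pass. In libraries 1 to 3 the ratio was 3.17 to 6.08 in TLCP and 1.21 to 1.95 in Tfh. In libraries 4 to 6 it was 11.7 to 24.5 in TLCP and 1.79 to 5.84 in Tfh. So the populations did not overlap within either set.

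**Figure D2:**
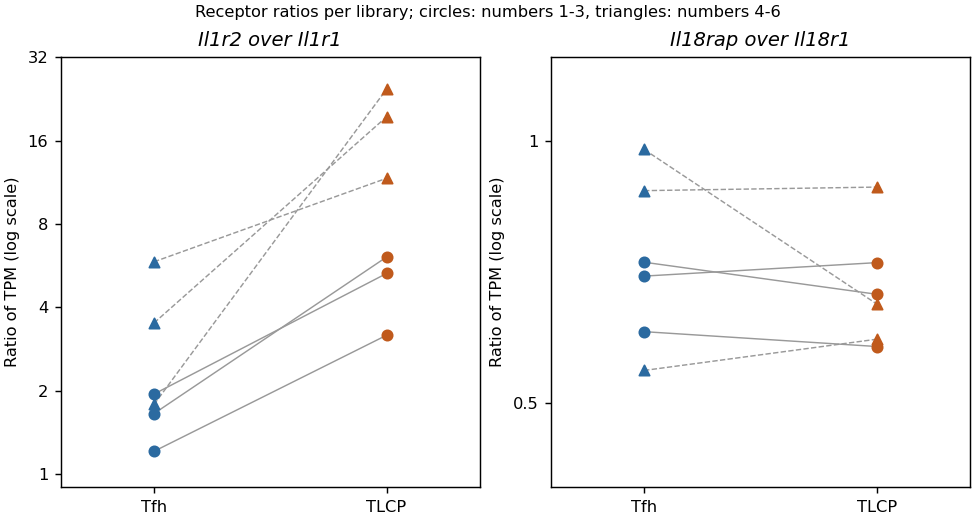
Ratio of TPM values for Il1r2 to Il1r1 and Il18rap to Il18r1 (vertical axes, log scale) in each library, with lines joining libraries of the same number, circles for numbers 1 to 3 and triangles for numbers 4 to 6. The ratio of Il1r2 to Il1r1 is higher in TLCP in all 6 joined pairs, while the ratio of Il18rap to Il18r1 stays between 0.545 and 0.979 with no common direction.

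The other inhibitory members did not pass the test. Sigirr, an inhibitory receptor of the family on chromosome 7 (141091175 to 141100572), was 25.2, 33.3 and 38.0 CPM (lowest, median, highest) in TLCP and 28.7, 31.2 and 52.1 CPM in Tfh. Its log2 fold change was -0.06 (95% interval -0.34 to 0.21, edgeR adjusted p = 0.76). TLCP was higher in 2 pairs and lower in 4. Il1rn, the interleukin-1 receptor antagonist on chromosome 2 (24336853 to 24351494), was the member with the lowest CPM in Tfh, at 2.12, 4.61 and 6.85 CPM, and was 2.40, 4.70 and 5.65 CPM in TLCP. Its log2 fold change was -0.04 (95% interval -0.58 to 0.49, edgeR adjusted p = 0.92), with 3 pairs in each direction. These intervals, 1.96 SE to either side, include changes of either sign, and for Il1rn they reach changes of about the size seen for Il1rap.

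Scaled by gene length, the order of the members differed between the populations. In TLCP the mean TPM was 73.6 for Il18r1, 51.8 for Il18rap, 28.03 for Sigirr, 17.9 for Il1r2, 11.4 for Il1rl1, 4.34 for Il1rap, 2.06 for Il1rn and 1.88 for Il1r1. In Tfh it was 37.4 for Il1r2, 23.9 for Sigirr, 15.6 for Il1r1, 14.3 for Il18r1, 10.8 for Il18rap, 4.78 for Il1rap, 2.55 for Il1rl1 and 1.72 for Il1rn. Neighbours in these orders overlapped in their ranges over the 6 libraries, except Il1rap and Il1rn in TLCP. Within libraries some neighbours kept their order: Il18r1 was above Il18rap in 6 of 6 libraries of each population, whereas Il1r1 was above Il18r1 in 3 of 6 Tfh libraries. The first and the last place in TLCP were thus held by Il18r1 and Il1r1, which are neighbours in the Tfh order.

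Along chromosome 1 the direction changed once within the cluster. Il1r2 and Il1r1 fell, and Il1rl2, the interleukin-36 receptor that lies next, was at 15.7 ± 4.39 CPM (TLCP) and 20.03 ± 2.86 CPM (Tfh) and did not pass (log2 fold change -0.35, SE 0.16, edgeR adjusted p = 0.10). The 3 genes beyond it, Il1rl1, Il18r1 and Il18rap, rose. The nearest tested genes outside the cluster were Map4k4, a kinase gene, on the side of Il1r2 (-0.13, SE 0.08, adjusted p = 0.26) and Mfsd9, a transporter family gene, on the side of Il18rap (-0.62, SE 0.39, adjusted p = 0.24), and neither passed. Il1rap lies apart on chromosome 16, from 26581704 to 26730117.

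**Figure D3:**
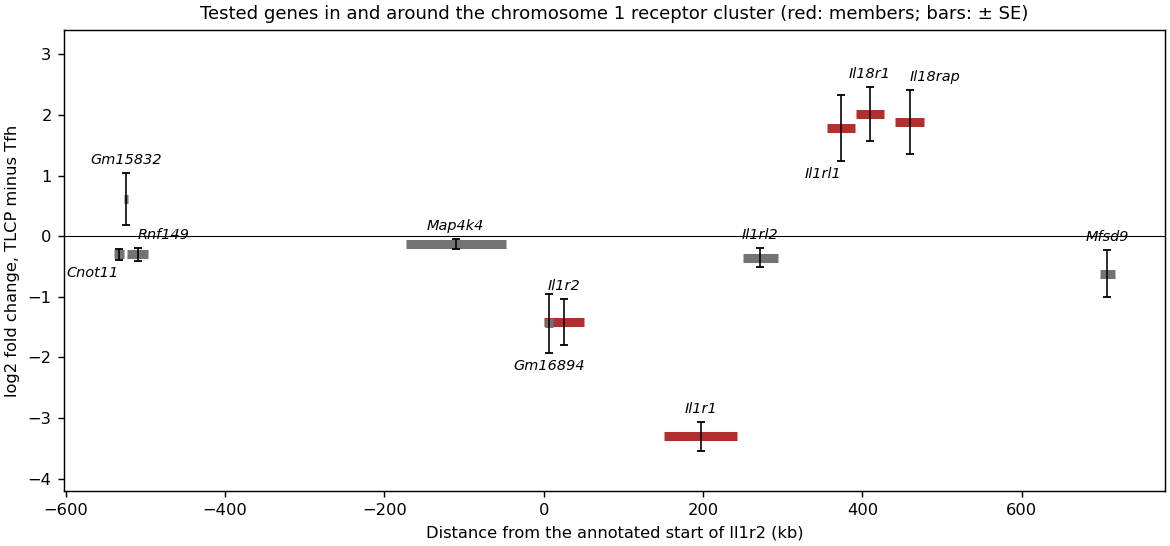
Log2 fold change, TLCP minus Tfh (vertical axis, bars ± SE), of tested genes in and around the receptor cluster against distance from the annotated start of Il1r2 in kb, with bar lengths to scale and members in red. Il1r2 and Il1r1 lie at -1.42 and -3.30, Il1rl2, which did not pass, lies at -0.35, and Il1rl1, Il18r1 and Il18rap lie at 1.78, 2.02 and 1.88.

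Members also varied between libraries of 1 population. Libraries 1 to 3 and libraries 4 to 6 formed 2 sets seen in the data, although no label names a batch: deviations from the group means had a median correlation of 0.10 within and -0.15 across sets. Il18r1 was 12.01 to 19.6 CPM in Tfh libraries 1 to 3 and 47.3 to 53.2 CPM in Tfh libraries 4 to 6. In TLCP the same sets were 69.5 to 113 and 138 to 224 CPM. Its mean was thus 2.91-fold higher in libraries 4 to 6 in Tfh and 2.10-fold higher in TLCP. Il18rap was 3.36-fold and 2.24-fold higher in libraries 4 to 6, and Il1rl1 2.91-fold and 2.203-fold, in Tfh and TLCP respectively. Il1r1 went the other way, with 49.5 to 50.2 against 40.4 to 42.0 CPM in Tfh and 5.29 to 7.21 against 2.08 to 3.78 CPM in TLCP. The 2 sets did not overlap for 3 of 8 members in TLCP (Il1r1, Il1r2 and Il18r1) and for 18.0% of tested genes. In Tfh they did not overlap for 4 of 8 (Il1r1, Il1rl1, Il18r1 and Il18rap) and for 28.7% of tested genes. In both populations at once this held for 2 members, Il1r1 and Il18r1, and for 6.93% of tested genes.

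The population differences were present within each set. In libraries 1 to 3 alone the log2 fold change was 2.34 for Il18r1, 2.31 for Il18rap and -2.97 for Il1r1. In libraries 4 to 6 alone it was 1.86, 1.70 and -3.82, and these 3 members passed in both sets. Il1rl1 passed in libraries 4 to 6 (1.64, adjusted p = 0.029) and not in libraries 1 to 3 (2.08, adjusted p = 0.072). Il1r2 passed in libraries 1 to 3 (-1.36, adjusted p = 0.00015) and not in 4 to 6 (-1.47, adjusted p = 0.087). Il1rap was -0.29 in libraries 1 to 3 (adjusted p = 0.14) and -0.52 in libraries 4 to 6 (adjusted p = 0.046). All p-values are from edgeR with 3 libraries per population, and whether the sets differ in these changes was not tested. With the replicate number as a block, all 6 called members passed with smaller SEs, 2.07 (SE 0.14) for Il18r1, 1.96 (SE 0.14) for Il18rap, -3.35 (SE 0.16) for Il1r1, -1.35 (SE 0.22) for Il1r2 and -0.40 (SE 0.12) for Il1rap.

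**Figure D4:**
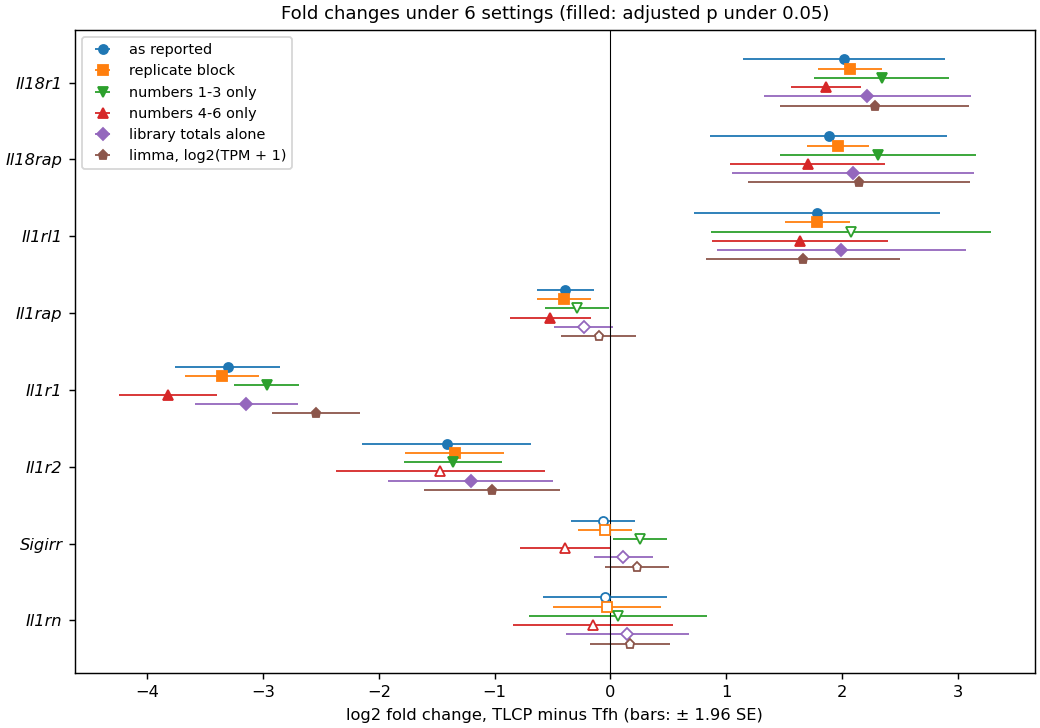
Log2 fold change of each member, TLCP minus Tfh (horizontal axis, bars ± 1.96 SE), as reported, with the replicate block, in numbers 1 to 3 or 4 to 6 alone, with library totals alone and by limma on log2(TPM + 1); filled symbols mark an adjusted p under 0.05. Il18r1, Il18rap and Il1r1 are filled in every setting shown, Il1rap is open in 3 of 6, and Sigirr and Il1rn lie on both sides of 0.

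The genes whose levels were most like each called member over the 12 libraries were found among 9246 genes by Pearson's r of log2(CPM + 1). These r values describe libraries of 2 populations, which also formed the 2 sets seen in the data, and carry no test. Il1rl1 was most like Il18rap (r = 0.98), followed by Car5b, a mitochondrial carbonic anhydrase (0.97), and Apobec2 (0.96). Il18rap was most like Car5b (0.99), Furin, a proprotein convertase (0.98), and Il18r1 (0.98). Il18r1 was most like Tagln2, an actin-binding protein (0.98), Xdh, xanthine dehydrogenase (0.98), and Il18rap (0.98). Il18r1 and Il18rap thus stood among the 3 closest genes of each other, and Il1rl1 was not among the 3 closest of either. For Il18rap this rank rested on a very small gap, with r = 0.9804 to Il18r1 and 0.9800 to Il1rl1. Il1r1 was most like Slc9a9, a sodium-proton exchanger, Cd44, the hyaluronan receptor, and Ptpn11, the phosphatase SHP2 (r = 0.997, 0.994 and 0.994). Il1r2 was most like Abcf2, Osbpl3 and R3hcc1l (0.94 for each), and Il1rap was most like Ankfy1 (0.95), Ginm1 and Asap2 (0.91 each).

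Other genes of the pathway were taken in 4 lists of 39 genes, of which 28 could be tested. Where 16.8% of all tested genes rose and 16.4% fell, 14 of these 28 rose, 4 fell and 10 did not pass. Scaled by totals only, 15 were higher and 0 lower, as they were on TPM, so the 4 lower calls depended on the scaling. Among other receptors and binding proteins 2 of 4 were tested. Il18bp, a secreted protein that neutralizes interleukin-18, rose to 6.11 CPM in TLCP against 3.12 CPM in Tfh (0.98 on the log2 scale, SE 0.26, edgeR adjusted p = 0.0059), and Il1rl2 is given above. Among 9 ligands only Il18 could be tested. It rose as well, to 3.19 CPM against 0.854 CPM in Tfh (1.92, SE 0.42, edgeR adjusted p = 0.0015). Il1b had 43 reads in all TLCP and 27 in all Tfh libraries, and Il33 had 0 and 4. The interleukin-36 ligand and antagonist genes Il36a, Il36b and Il36rn, and Il1f10, had 0 counts in all 12 libraries.

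Of 18 genes of receptor-proximal signaling, all tested, 8 rose, 3 fell and 7 did not pass, with a median log2 fold change of 0.13. Irak3, an IRAK family member that restrains signaling, rose from 3.35 to 9.18 CPM (1.45, SE 0.27, edgeR adjusted p = 0.00038), the largest change in this list. Irak2 and Irak1, kinases that act after MyD88, rose by 0.78 (SE 0.14) and 0.48 (SE 0.07), and Ikbkb, a kinase of the NF-kB pathway, by 0.52 (SE 0.09). Those that fell, named after their values were seen, were Irak4, Tollip and Mapk14, at -0.28, -0.23 and -0.34. Myd88 itself did not pass (0.22, adjusted p = 0.10). Of 8 inflammasome and processing genes 7 were tested, 4 rose and 1 fell, with a median of 0.31. Gsdmd, the pore-forming gasdermin D, rose by 0.54 (SE 0.09), Pycard, the inflammasome adaptor, by 0.31 (SE 0.08) and Nlrc4, an inflammasome sensor, by 1.26 (SE 0.32). Casp1, the protease that matures interleukin-18 and interleukin-1β, fell from 151 to 114 CPM (-0.41, SE 0.09, edgeR adjusted p = 0.0011).

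**Figure D5:**
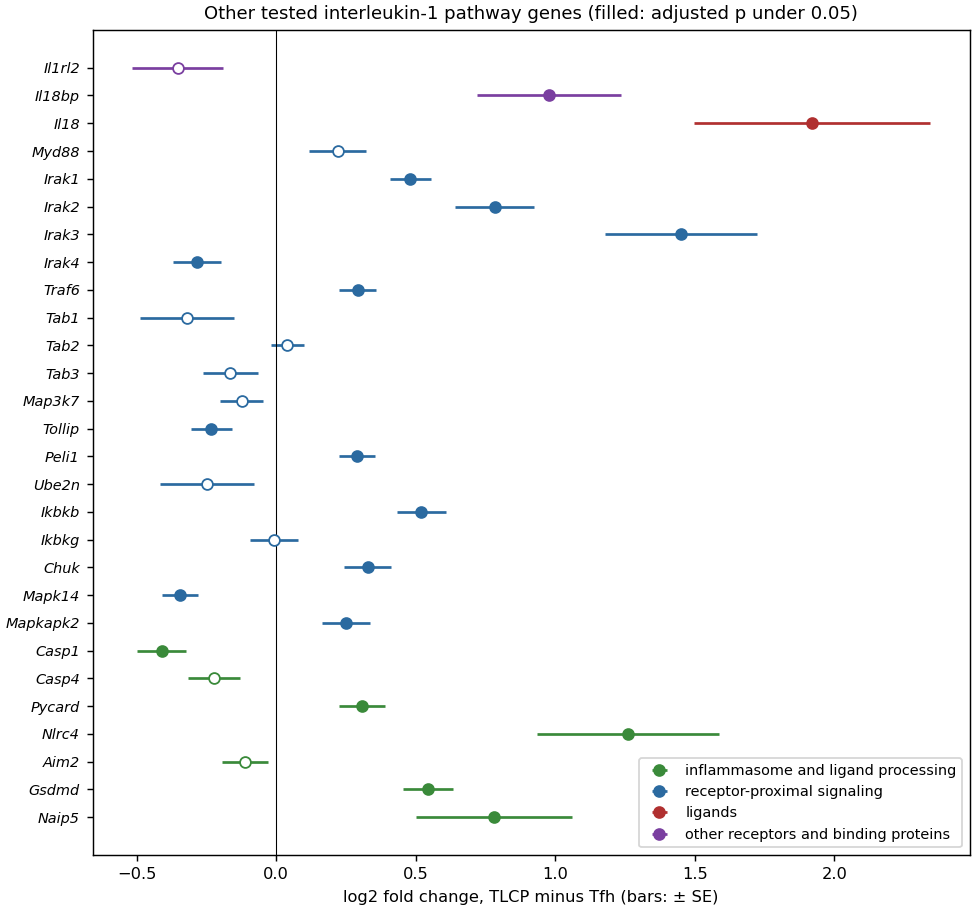
Log2 fold change, TLCP minus Tfh (horizontal axis, bars ± SE), of the 28 tested genes in the 4 pathway lists, colored by list, with filled symbols for an adjusted p under 0.05. Il18, Irak3 and Nlrc4 lie farthest to the right, at 1.92, 1.45 and 1.26, and the changes of most signaling genes are within 0.6 of 0.

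Markers of the sort and of cell types were read beside these values. Of all tested genes 16.8% rose and 16.4% fell. Cd3e, Cd3d and Cd4 were present in every library (summed 1326 to 1553 CPM in TLCP, 1636 to 1818 in Tfh; Cd3d and Cd4 fell), and of the sort genes Lag3 was higher and Pdcd1 lower in TLCP, while Cxcr5, on which both populations were gated as positive, was also lower; the 3 Tfh genes listed (Bcl6, Il21 and Il4) fell. Th1 genes rose in 6 of 6, with sums of 279 to 500 CPM in TLCP and 90.5 to 165 CPM in Tfh. Within TLCP the Th1 sums were highest in replicates 5 and 6, which also had the highest Il18r1 and Il18rap levels and the highest dendritic cell sums. Within Tfh the Th1 sums were highest in replicates 5 and 6 as well, at 158 and 165 CPM. These had the highest Il18rap levels, 65.5 and 58.2 CPM, with Il18r1 at 47.7 and 47.3 CPM. Tfh replicate 4 had the highest Il18r1 level, 53.2 CPM, and a Th1 sum of 116 CPM. That sum was below the 129 CPM of Tfh replicate 1, where Il18r1 was 19.4 CPM. Regulatory T cell genes rose in 5 of 6, among them Foxp3 (32.6 to 84.4 CPM) and Il2ra (20.7 to 111 CPM). Ikzf2, the most abundant of the 6, fell from 739 to 428 CPM. The sums, 742 to 1120 CPM in TLCP and 853 to 1105 CPM in Tfh, thus do not show the 5 rises. Th17 genes rose in 2 of 2 tested, while Il17a had 0 counts in TLCP. B cell genes rose in 5 of 5 (4178 to 23287 CPM in TLCP, 943 to 1704 in Tfh) and plasma cell genes in 4 of 4 (621 to 3189 and 69.0 to 222 CPM). Neutrophil genes rose in 1 of 4 tested (8.49 to 31.5 and 1.43 to 31.4 CPM), macrophage and monocyte genes in 1 of 4 (51.5 to 148 and 20.4 to 104 CPM) and dendritic cell genes in 2 of 3 (6.37 to 19.5 and 0.708 to 7.01 CPM). Of 4 tested NK and CD8 T cell genes Eomes rose and Klrb1c fell (23.9 to 40.5 and 19.7 to 26.6 CPM). Ncr1, another gene of this list, had too few reads to be tested, 32 in all TLCP and 8 in all Tfh libraries (at most 1.08 CPM). The part of other cells in the member differences was not tested.

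In the authors' deposited table the log2 fold changes of the members were -3.30 for Il1r1, -1.42 for Il1r2, 1.78 for Il1rl1, -0.38 for Il1rap, 2.02 for Il18r1 and 1.89 for Il18rap. The authors' deposited table gives adjusted p-values of 0.0045 for Il1rl1, 0.022 for Il1rap, 0.85 for Sigirr and 0.96 for Il1rn.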

How the data were processed

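Polyadenylated RNA was sequenced in 6 TLCP and 6 Tfh libraries. The tools named per the submitters' processing notes are STAR 2.7.1a, bcl2fastq 2.20 and DESeq2 1.30.1, with the build GRCm38 and an annotation release not given in the sources used here. Deposited by the authors were raw read counts per gene, TPM values, and a table with log2 fold changes, p-values, Wald scores and a normalized signal per library. Whole reads were recovered from that signal for 100% of values (tolerance 0.01 reads), equalled the counts, and gave 3983 called genes in the same test. Counts on the strand of the gene were used. Between 44.9% and 56.4% of reads were in classes that name no gene and were left out.

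Counts were tested in R 4.3.3 with edgeR 4.0.16 (filterByExpr, TMM, quasi-likelihood test with robust dispersion, 2-sided), over all 12015 genes that passed, with limma 3.58.1 (voom, or log2 of TPM + 1 or + 0.1) and DESeq2 1.42.0 as alternatives, beside other scalings, filters on low counts, unstranded counts, a replicate block, each set of 3 numbers alone, leaving out each library, and leaving out genes of ribosomal RNA-like sequence; SE is the absolute log2 fold change over the square root of F. Ratios used TPM + 0.1. Named genes are the 8 members, up to 4 called genes with the smallest p per pathway list, genes at 0 counts in all libraries, the leading markers of each list, and the 3 genes most like each called member with at least 5 CPM (antigen receptor segments, pseudogenes and unnamed gene models left out). The members, lists and alternatives were chosen with earlier results of these data known. Gene symbols for 4 interleukin-36 family genes were matched through RefSeq synonyms. Positions of the 8 members in the files equalled those in GENCODE M21.

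Libraries with the same number deviated together from their group means (correlation 0.16 to 0.362; up to 0.232 between different numbers, and 10 of 12 libraries matched their own number best). The pairing is inferred from the data. Reported values come from the fit without pairs, and the replicate block is an alternative given beside them. The labels do not tie single libraries to animals, so p-values measure only the spread between these libraries, which may be technical. No 2 libraries of a population agreed within sampling noise.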

Additional observations from a re-analysis of the deposited data

Results flagged for a closer look

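Among 16 groups of 6 libraries (8 members in 2 populations), 1 library stood apart from the others of its population. Sigirr was 52.1 CPM in Tfh replicate 4, and the next highest Tfh library had 34.2 CPM, a gap of 0.764 of the whole range against a critical value of 0.625. Chance flags about 1 in 20 groups. Tfh replicate 4 was also the Tfh library with the highest Il1r2, Il18r1 and Il1rn and with the fewest assigned reads, 6939770. Without it the log2 fold change of Sigirr was 0.08 in place of -0.06, and Sigirr passed in neither case.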

How the results depend on the processing

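Il1r1, Il18r1 and Il18rap kept their direction and call under all 26 alternatives each. Without one library at a time, the log2 fold change ranged from -3.48 to -3.15 for Il1r1, 1.80 to 2.19 for Il18r1 and 1.65 to 2.14 for Il18rap. Mice 1 to 3 and 4 to 6 stand for the library numbers. Il1r2 lost its call in mice 4 to 6 only (-1.47). Il1rl1 lost it with no filter on low counts (1.78), in mice 1 to 3 only (2.08) and without 1 of 4 libraries named above (range 1.55 to 2.05). Il1rap lost it with library totals alone (-0.23), in mice 1 to 3 only (-0.29), on log2(TPM + 1) (-0.10), on log2(TPM + 0.1) (-0.12) and without Tfh replicate 1 (range -0.47 to -0.32). Sigirr, not called, changed sign with library totals alone (0.11), in mice 1 to 3 only (0.25), on log2(TPM + 1) (0.23), on log2(TPM + 0.1) (0.24) and without Tfh replicate 4 (range -0.11 to 0.084). Il1rn, not called, did so with library totals alone (0.14), limma voom (0.042), mice 1 to 3 only (0.067), log2(TPM + 1) (0.17), log2(TPM + 0.1) (0.24), and without TLCP replicate 1 or Tfh replicate 4 (range -0.20 to 0.095). Of the other pathway genes, 8 rose and 1 fell in mice 4 to 6 only, and 0 fell with library totals alone and on log2(TPM + 1). Over all genes, 3207 were higher and 893 lower with library totals alone, and 3430 and 504 on log2(TPM + 1), in place of 2014 and 1969. With the replicate block 4453 genes were called, and no member's call changed. For the log2 ratio of Il1r2 to Il1r1 (1.99), the sign-flip test with pairs kept together gave an adjusted p of 0.062. As said above, 6 pairs could not have passed there, so this is not a loss of the result. The cause of these changes was not tested. The recovered reads were chosen after seeing the data. Depth limits Il1rn most, with 256 and 246 reads in the 2 populations.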
